A study of Homo sapiens with 9 samples.

Results

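The nuclear genes for subunits of the oxidative phosphorylation complexes were followed in HepG2 cells, an established line from a human liver tumour. They were taken by gene symbol, as the rows named NDUFA, NDUFB, NDUFC, NDUFS or NDUFV with a number for complex I, SDHA to SDHD for complex II, 8 UQCR genes for complex III, 10 COX genes for complex IV and 15 ATP5 genes for complex V. This gave 74 genes of the 60612 in the table: 37 of complex I, 4 of complex II, 8 of complex III, 10 of complex IV and 15 of complex V. All 74 passed the filter on low counts, as did 20157 genes in all. Cells had been exposed to 0.1% DMSO, the solvent control, to 50 µM PQY09 or to 50 µM PQY23_1, with 3 libraries in each group. By the title of the series PQY09 is Butyrolactone I and PQY23_1 a derivative of it. How long the cells were exposed, and whether DMSO was present with the compounds, is not given in the sources used here. All libraries came from this 1 cell line, which cannot stand for normal liver. No source says that replicate libraries came from separate cultures, and p-values then cover only the spread among these samples, which may be technical.

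The complexes sit in the inner mitochondrial membrane. Complexes I and II take electrons from NADH and succinate and pass them to ubiquinone, complex III passes them to cytochrome c, and complex IV passes them to oxygen. Complexes I, III and IV pump protons, and complex V, the ATP synthase, uses the gradient to make ATP. Complex II is encoded wholly in the nucleus, whereas the other complexes also hold subunits translated from mitochondrial DNA, so both genomes must supply parts. Liver cells rely on this system for fatty acid oxidation, gluconeogenesis and urea synthesis.

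Library totals ran from 85050531 to 107538450 counts, and the TMM scaling factors from 0.977 to 1.026. The hepatocyte markers were at 34250, 36780 and 35470 summed CPM (counts scaled to library size) under DMSO, at 33190 to 35510 under PQY09 and at 30170 to 32440 under PQY23_1. AFP, a fetal liver marker kept by this line, stood at 4877, 5012 and 4972 CPM under DMSO. The 11 markers of other cell types summed to between 82.1 and 110.2 CPM over the 9 libraries, most of it from ACTA2 and CD68. CD68 was higher in the 3 PQY23_1 libraries (38.9 to 51.5 CPM) than in the 6 others (25.3 to 34.0 CPM), called by DESeq2 but not by edgeR (adjusted p = 0.0967 against DMSO). CDH5, an endothelial gene, was the marker of this list that edgeR called, lower under PQY23_1 than under PQY09 (log2 -1.71, adjusted p = 0.0373; not called without PQY23_1 replicate 1) at levels of 0.346 to 2.43 CPM. The median change of the 8 markers tested was -0.21 under PQY23_1 against DMSO, and their part in the results was not tested. CD3E, a T cell marker, was at 0 in all 9 libraries, and PTPRC, the pan-leukocyte marker, was above 0 in a single library (0.041 CPM). In bulk RNA, fewer cells of a type and less RNA per cell cannot be told apart. PQY23_1 replicate 1 stood apart from the other 8 libraries for the genes described here. The counts, medians and named genes of the PQY23_1 comparisons are therefore also given without it, but not the numbers of overlapping groups or of intervals.

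Under DMSO the 74 genes together held 8285, 8492 and 8656 CPM, or 0.827%, 0.865% and 0.858% of all counts. By deposited FPKM, which scales counts by gene length, the mean per subunit was 33.7 ± 0.67 (SD, n = 3) for complex I, 23.6 ± 0.51 for complex II, 59.1 ± 0.14 for complex III, 64.1 ± 0.17 for complex IV and 55.6 ± 3.42 for complex V. Complexes III, IV and V thus stood above complexes I and II by more than the spread between the DMSO libraries. The lengths behind these FPKM values followed the bases covered by any annotated exon: the length implied by CPM over FPKM was at the median 1.18 times that exon union, but 2.69 times the principal transcript of the gene (APPRIS tag, GENCODE v29). The exon union was more than 2 times the principal transcript for 43 of the 74 genes. Levels were therefore also taken as CPM per kilobase of principal transcript, a scale chosen after the data were seen. On it the means per subunit were 65.2 ± 1.35 for complex I, 51.9 ± 2.17 for complex II, 131 ± 2.09 for complex III, 162 ± 3.34 for complex IV and 188.5 ± 6.29 for complex V (SD, n = 3). Complexes I and II stayed lowest on this scale, and complex V came first by the mean, where by FPKM complexes IV and III had stood above it. That mean includes ATP5MF at 538 CPM per kilobase, on a principal transcript of 305 bases with an exon union 7.46 times as long. The median members of complexes V and IV were close, at 162.9 and 156.1 CPM per kilobase.

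The order of single genes also depended on the length used. NDUFS5, an accessory subunit of complex I on the intermembrane space side, had the highest FPKM at 279 ± 6.04, followed by ATP5F1B, the catalytic beta subunit of the ATP synthase, at 233 ± 43.6 (SD, n = 3). The difference between these 2 genes was close to the SD of ATP5F1B. COX8A, a small complex IV subunit, came next at 145 ± 7.63 FPKM, then UQCRH, the hinge protein of complex III, at 137 ± 8.43 and NDUFA1, a small membrane subunit of complex I, at 134 ± 19.7. The spreads of COX8A, UQCRH and NDUFA1 overlapped. The lowest FPKM was that of NDUFS7, an iron-sulfur subunit near the ubiquinone site, at 3.24 ± 0.205, and NDUFB5, NDUFA5, NDUFV3 and NDUFA9, all of complex I, followed at 3.86 ± 0.342, 3.91 ± 0.561, 5.34 ± 0.667 and 5.75 ± 0.243. Per kilobase of principal transcript, NDUFS7 stood at 27.6 ± 2.06 CPM and ranked 63 of 74. Of the 10 highest genes by FPKM, 6 were also among the 10 highest per kilobase. ATP5MC3, which encodes the c-ring subunit of the ATP synthase, ranked 31 by FPKM (33.4 ± 1.42) and 7 per kilobase (319 ± 14.8 CPM). SDHC, a membrane anchor of complex II, ranked 42 by FPKM (24.7 ± 0.827) and last per kilobase (8.003 ± 0.173 CPM), with a principal transcript annotated at 13566 bases.

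**Figure D1:**
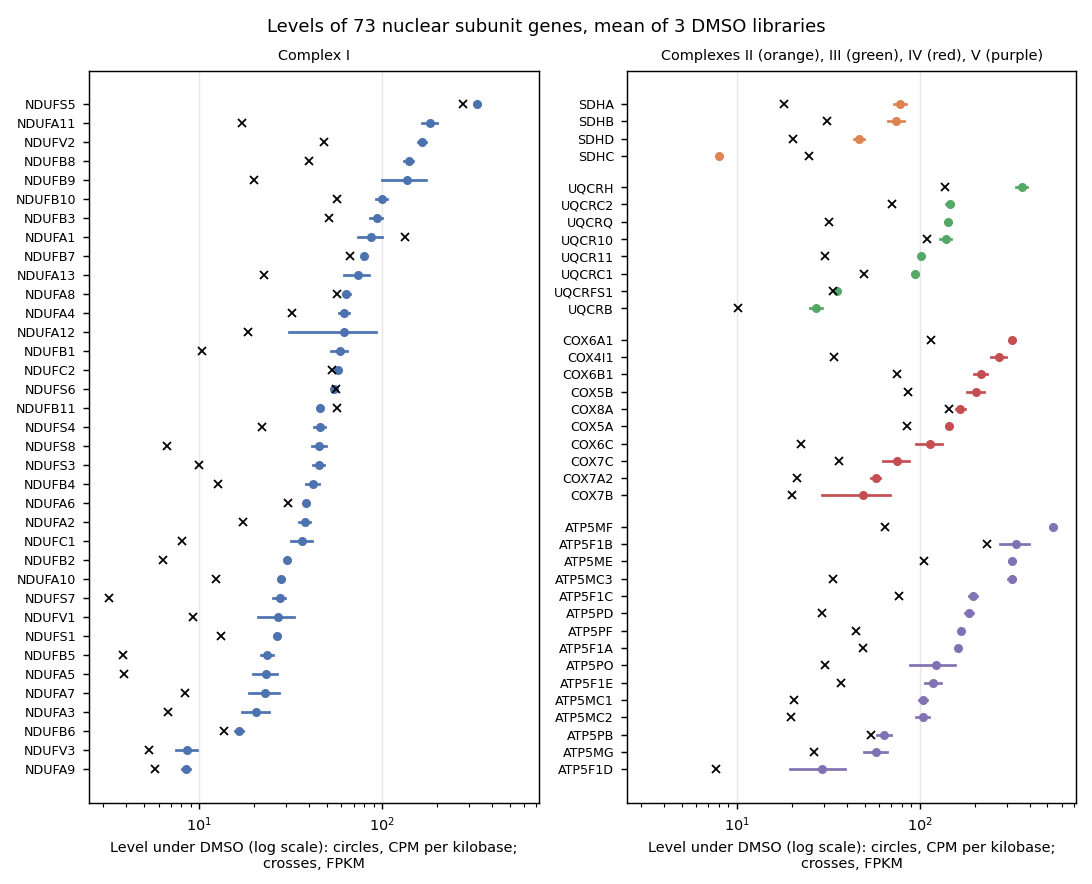
Levels of 73 of the 74 genes under DMSO on a log axis, with complex I on the left and complexes II to V on the right; circles with bars are the mean ± SD of 3 libraries in CPM per kilobase of principal transcript and crosses are the mean FPKM. Crosses lie left of the circles for most genes, and complex V holds the highest circle (ATP5MF, 538 CPM per kilobase of a principal transcript of 305 bases).

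In complex II the catalytic flavoprotein SDHA and the iron-sulfur subunit SDHB were at 18.0 ± 1.26 and 31.2 ± 2.84 FPKM, and the anchors SDHC and SDHD at 24.7 ± 0.827 and 20.3 ± 1.51. In complex III the core proteins UQCRC1 and UQCRC2 stood at 49.6 ± 1.07 and 70.3 ± 2.68 FPKM, above the Rieske iron-sulfur protein UQCRFS1 at 33.4 ± 0.972. In complex IV, COX4I1, a regulatory subunit, stood at 34.1 ± 2.90 FPKM, below COX5A (84.8 ± 2.78) and COX5B (86.3 ± 8.60). Per kilobase of principal transcript COX4I1 lay above both, at 272 ± 26.0 CPM against 145 ± 6.11 (COX5A) and 204 ± 22.0 (COX5B). In complex V the alpha subunit ATP5F1A was at 48.9 ± 0.375 FPKM. The 3 genes ATP5MC1, ATP5MC2 and ATP5MC3, which encode the same mature c subunit, were at 20.5 ± 1.22, 19.8 ± 1.36 and 33.4 ± 1.42 FPKM.

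Promoters of these genes are known for a few short elements, those of NRF1, of ETS factors such as GABP, and of YY1. In RefSeq promoter windows of 300 bases (GRCh38.p14, 250 before the start site and 50 from it), 61 of the 74 genes had an entry. NDUFA4, NDUFB5, NDUFB9, NDUFC2, NDUFS5, SDHC, UQCRB, COX6C, ATP5F1B, ATP5F1D, ATP5MC3 and ATP5MF were among those with none. The NRF1 letters GCGCATGCG were found on either strand in 8 of the 61 windows (13.1%), against 1.92% of all 35116 promoters and 2.36% of the 22198 of protein-coding genes. The ETS letters CCGGAAG were found in 19 (31.1%), against 10.3% of all and 12.8% of protein-coding promoters. The YY1 letters AAGATGGCG were found in 9 (14.8%), against 1.75% and 2.41%. At least 1 of these strings was present in 30 of the 61 windows (49.2%), against 13.1% and 16.4%. The median number of CG pairs in the window was 23, against 14 in all promoters and 21 in protein-coding ones. These matches are a description of letters, not sites of binding, and the strings may overlap. The median FPKM under DMSO was 56.3 for members with the NRF1 letters and 30.3 for those without, 44.9 and 20.2 for the ETS letters, and 30.5 and 30.3 for the YY1 letters, given as a description with no test. Only 4 of the 19 windows with the ETS letters were of complex I, whose median member had 17.4 FPKM against 30.3 over all 74 genes. These medians were not split by complex and were not taken per kilobase of principal transcript. The windows of COX6A1, COX8A and UQCRC1 are printed because each is the member with the highest FPKM among those that hold the NRF1, ETS or YY1 letters. Capitals mark the matched letters, positions are counted from 1 at the 5′ end of the window, and the start site is base 251. In COX6A1 (chr12:120437863-120438162, + strand) the NRF1 letters lie at 32 to 40 and the ETS letters at 235 to 241, both on the opposite strand. In COX8A (chr11:63974370-63974669, + strand) the ETS letters lie at 233 to 239 on the opposite strand. In UQCRC1 (chr3:48609597-48609896, - strand) the YY1 letters lie at 274 to 282 on the gene's strand, past the start site.
COX6A1: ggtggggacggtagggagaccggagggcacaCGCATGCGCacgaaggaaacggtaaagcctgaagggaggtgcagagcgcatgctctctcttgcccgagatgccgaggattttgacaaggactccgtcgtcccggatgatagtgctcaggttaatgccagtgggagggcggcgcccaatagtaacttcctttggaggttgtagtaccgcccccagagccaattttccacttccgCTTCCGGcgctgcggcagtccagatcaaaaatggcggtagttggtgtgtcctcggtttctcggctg
COX8A: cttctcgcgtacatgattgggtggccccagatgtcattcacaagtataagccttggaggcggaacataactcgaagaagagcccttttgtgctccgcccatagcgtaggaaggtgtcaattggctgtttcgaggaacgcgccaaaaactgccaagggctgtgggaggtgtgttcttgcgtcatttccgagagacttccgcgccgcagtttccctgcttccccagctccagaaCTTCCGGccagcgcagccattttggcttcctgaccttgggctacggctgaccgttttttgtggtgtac
UQCRC1: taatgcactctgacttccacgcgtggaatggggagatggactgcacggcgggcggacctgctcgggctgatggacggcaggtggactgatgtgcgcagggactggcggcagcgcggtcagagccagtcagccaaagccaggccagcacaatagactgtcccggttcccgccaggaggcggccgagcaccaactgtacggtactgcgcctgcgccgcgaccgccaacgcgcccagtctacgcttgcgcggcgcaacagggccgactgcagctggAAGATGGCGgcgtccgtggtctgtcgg

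The median standard error of a log2 change was 0.096 for the 74 genes, against 0.197 for all genes tested and 0.090 for the 7761 genes at or above the lowest member's mean CPM. The 74 genes were thus no tighter between replicates than genes of like level. A few varied more. NDUFA12, an accessory subunit of complex I, had 25.8, 61.9 and 30.6 CPM in the DMSO libraries and 24.0 to 34.6 CPM in the other 6, so its DMSO replicate 2 lay far above all others. COX7B, a small complex IV subunit, had 52.6, 104.6 and 56.8 CPM under DMSO and 53.5, 58.0 and 117 CPM under PQY09. NDUFA7, an accessory subunit of complex I, had 9.90 CPM in PQY23_1 replicate 1 but 26.1 and 25.7 CPM in the other libraries of its group. ATP5F1D, the delta subunit of the ATP synthase, ran from 14.6 to 34.1 CPM over the 9 libraries. The span of NDUFA7 overlaps RPS28, a ribosomal protein gene at 99.6 CPM on the other strand, and AC010323, at 8.02 CPM on the same strand. Exons were not compared and the strand setting of the counting is not given, so whether NDUFA7 shares reads with them is not known.

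The first comparison asked whether PQY09 changed these transcripts. None of the 74 genes changed by edgeR's quasi-likelihood test at a Benjamini-Hochberg adjusted p below 0.05, where 2.85% of all genes tested were called. At an unadjusted p below 0.05 there were 2 higher and 1 lower, against 15.6% of all genes, and DESeq2 and limma on log2(FPKM + 1) also called 0 (4 and 6 at an unadjusted p below 0.05). Over all genes DESeq2 called 1464 of 20157 and limma 719 of 11646. The median log2 change of the 74 genes was -0.01, against 0.00 for all genes, with 35 above 0 and 39 below. All 3 libraries lay above or below all 3 DMSO libraries for 15 of the 74 genes (6 higher, 9 lower), where 24.4% of all genes did. Among the 7761 genes at or above the lowest member's mean CPM 32.3% did, and edgeR called 5.09%. The median change by complex ran from -0.11 (complex II) to 0.02 (complex IV), with -0.01 for complex I, -0.03 for complex III and 0.02 for complex V.

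Some of the largest differences under PQY09 came from genes with scattered libraries. In complex I, NDUFB1, an accessory subunit, had 24.6, 28.9 and 29.7 CPM under DMSO and 38.4, 30.6 and 35.9 CPM under PQY09. The groups did not overlap, and the log2 change was 0.33 ± 0.14 (SE), with an adjusted p of 0.294 by edgeR's quasi-likelihood test. NDUFA12 had the lowest change, -0.45 ± 0.30 (adjusted p = 0.543), through its high DMSO replicate 2: without that library the change lay near 0 (0.03). NDUFS8, an iron-sulfur subunit chosen here after its values were seen, had the lowest adjusted p of the 74 (0.203), with 39.6, 35.1 and 33.2 CPM under DMSO and 46.3, 38.0 and 50.1 CPM under PQY09. Its groups overlapped.

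Core subunits did not pass the test. NDUFS1, the largest iron-sulfur subunit of complex I, had 187.6, 193.5 and 188.2 CPM under DMSO and 176.5, 179.8 and 173.2 CPM under PQY09. The PQY09 libraries were all lower, by a log2 change of -0.10 ± 0.05 (adjusted p = 0.343). ATP5F1A had 629.8, 622.3 and 644.3 CPM against 555.8, 603.0 and 608.4 CPM, again without overlap (-0.10 ± 0.06, adjusted p = 0.482). ATP5MC1 and ATP5MC2 were higher in all 3 PQY09 libraries, by 0.15 ± 0.08 and 0.13 ± 0.07 (adjusted p = 0.406 and 0.468), whereas ATP5MC3, which encodes the same c subunit, stood at 0.04 ± 0.08. In complex II the log2 changes were 0.12 ± 0.07 for SDHA, -0.06 ± 0.11 for SDHB, -0.15 ± 0.14 for SDHC and -0.21 ± 0.17 for SDHD. In complex III they lay between -0.13 ± 0.10 (UQCR11) and 0.05 ± 0.07 (UQCR10), both accessory subunits.

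Intervals were taken for each gene alone and, like the p-values, cover only the spread among these libraries. For 64 of the 74 genes the 95% interval of the change lay within 1.5-fold in both directions, and for 71 within 2-fold. The widest reached 1.13 on the log2 scale, for NDUFA12. A p that misses the threshold does not show that a gene stayed the same.

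**Figure D2:**
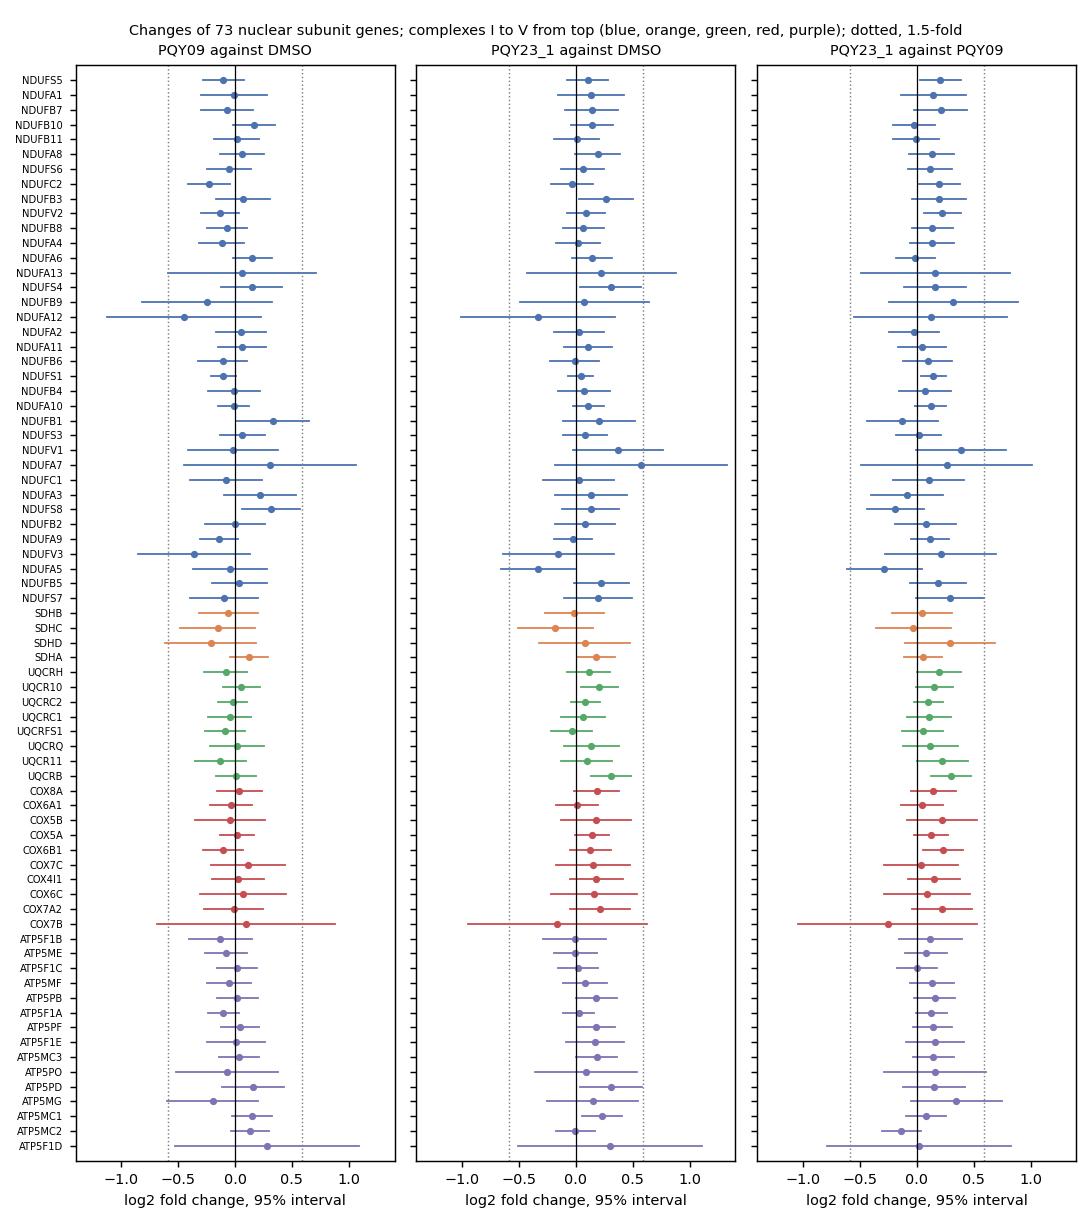
Log2 fold changes (points) with 95% intervals (lines) of 73 of the 74 genes in the 3 comparisons, from 9 libraries fitted at once, with dotted lines at 1.5-fold. Under PQY09 the points lie on both sides of 0, whereas against both DMSO and PQY09 the PQY23_1 points lie mostly above 0 (61 and 63 of all 74). Scaled as TPM the medians of these PQY23_1 changes are -0.02 and -0.03, which is 0.09 and 0.11 above those of all genes.

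Under PQY23_1 the same genes leaned higher, but no single one changed by the main test. By edgeR's quasi-likelihood test 0 of 74 had an adjusted p below 0.05, where 2.55% of all genes were called. At an unadjusted p below 0.05 there were 9 higher and 1 lower, against 16.3% of all genes. DESeq2 called 1 gene, UQCRB, and limma on log2(FPKM + 1) called 0 (8 and 7 at an unadjusted p below 0.05). Over all genes DESeq2 called 1468 of 20157 and limma 710 of 11646. The median log2 change was 0.11, with 61 of 74 genes above 0, whereas all genes had a median of 0.01. Other genes at or above the lowest member's mean CPM had medians that fell with the length of the principal transcript. These were 0.09 for 371 genes under 1000 bases and -0.08 at 5000 bases or more, so the lean was not particular to the 74 genes. For 8 genes all PQY23_1 libraries lay above all DMSO libraries and for 0 below, where 22.5% of all genes were separated in 1 direction or the other. Among the 7761 genes at or above the lowest member's mean CPM 29% were separated, and edgeR called 4.61%. By complex the medians were 0.09 for complex I, 0.03 for complex II, 0.10 for complex III, 0.15 for complex IV and 0.15 for complex V. Scaled as TPM, a rescaling of the FPKM values to equal sums per library that puts the median of all genes at -0.11, the members' median was -0.02, that is 0.09 above that of all genes.

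UQCRB, an accessory subunit of complex III at its ubiquinone side, stood furthest out. It had 157.5, 138.6 and 157.5 CPM under DMSO and 202.7, 171.8 and 186.1 CPM under PQY23_1. All 3 PQY23_1 libraries were higher, 1.24-fold (log2 0.31 ± 0.08, adjusted p = 0.0901 by edgeR). DESeq2 gave 0.30 ± 0.09 with an adjusted p of 0.0193. Without PQY23_1 replicate 1 the change was 0.24 (adjusted p = 0.194 by edgeR). Over the 20 alternative fits it ran from 0.17 to 0.36, with an adjusted p below 0.05 in 1 of them.

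Several other genes were separated between the groups without passing the threshold. ATP5MC1, a c-ring gene, had 65.5, 65.0 and 59.7 CPM under DMSO and 80.0, 71.9 and 71.4 CPM under PQY23_1 (log2 0.23 ± 0.08, adjusted p = 0.176 by edgeR), and 0.18 without PQY23_1 replicate 1. UQCR10, a small complex III subunit, had 136.6, 120.7 and 123.3 CPM against 157.9, 137.8 and 143.1 CPM (0.20 ± 0.07, adjusted p = 0.197), and 0.15 without that library. SDHA had 202.2, 181.1 and 178.1 CPM against 204.5, 211.0 and 218.1 CPM (0.17 ± 0.07, adjusted p = 0.278), and here PQY23_1 replicate 1 was the lowest of its group, so that the change without it was 0.20. Pseudogene rows hold 11.4% of the counts of SDHA and its copies, so its level is uncertain. ATP5PD, the stalk subunit d, had 108.1, 110.3 and 118.0 CPM against 169.2, 119.0 and 128.2 CPM, the highest change in complex V (0.31 ± 0.12, adjusted p = 0.243). Its change was 0.14 without PQY23_1 replicate 1.

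In complex I the range was widest. NDUFA7 had the highest change, 0.57 ± 0.33 (adjusted p = 0.456), in libraries that overlapped. Without PQY23_1 replicate 1 it was 0.90 (adjusted p = 0.0598). NDUFA5, an accessory subunit, had the lowest, -0.33 ± 0.14 (adjusted p = 0.301), from 44.5, 37.1 and 50.7 CPM under DMSO to 39.9, 31.7 and 33.5 CPM, and -0.44 without that library. NDUFV1, which holds the NADH site, had 51.3, 69.6 and 46.2 CPM against 79.9, 70.0 and 65.7 CPM (0.37 ± 0.17, adjusted p = 0.340), and 0.28 without it. NDUFS1 stood at 0.04 ± 0.05 and ATP5F1A at 0.02 ± 0.06, with adjusted p of 0.760 and 0.905, and at 0.05 and -0.01 without PQY23_1 replicate 1. NDUFA4, counted here with complex I by its symbol though it is now placed in complex IV, stood at 0.02 ± 0.09 (adjusted p = 0.963) and at -0.08 without that library. In complex IV the changes ran from -0.16 ± 0.34 (COX7B) to 0.21 ± 0.12 (COX7A2). COX7B stood at -0.27 and COX7A2 at 0.06 without PQY23_1 replicate 1. The 95% interval lay within 1.5-fold for 65 of the 74 genes and within 2-fold for 71.

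Most of the lean came from 1 library. PQY23_1 replicate 1 had the highest value of all 9 libraries for 55 of the 74 genes and lay above the DMSO mean for 70. The median of the 74 log2 differences from the DMSO mean was 0.26 in it, against 0.00 and 0.06 in PQY23_1 replicates 2 and 3 and between -0.05 and 0.03 in the 6 other libraries. The summed level was 9905 CPM in replicate 1 and 8423 and 8771 CPM in replicates 2 and 3, beside 8285 to 8656 CPM under DMSO and 8094 to 8440 CPM under PQY09. All complexes showed it: complex I summed to 2945 CPM against 2477 and 2535, complex III to 1600 against 1360 and 1425, complex IV to 1411 against 1137 and 1173, and complex V to 3471 against 2981 and 3196. Complex II was closest, at 478, 467.6 and 442.4 CPM.

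Without PQY23_1 replicate 1 the median change against DMSO was 0.02, with 41 of 74 genes above 0. By complex it was then 0.01, -0.04, 0.01, 0.05 and 0.04 for complexes I to V. By edgeR 0 of the 74 genes were called and 4 had an unadjusted p below 0.05. Over all genes in this fit 314 of 20884 were called, 49.7% lay above 0 and the median was -0.002. The share of all genes at an unadjusted p below 0.05 was not taken for this fit.

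**Figure D3:**
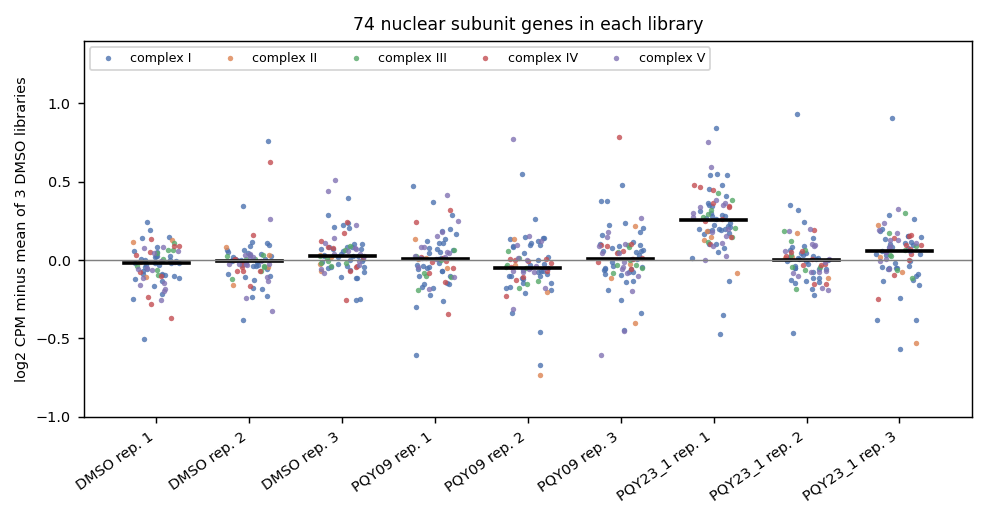
Each point is the log2 CPM of 1 of the 74 genes in 1 library minus its mean over 3 DMSO libraries, coloured by complex, with a black bar at the median of the library. The bar of PQY23_1 replicate 1 stands at 0.26, and those of the other 8 libraries lie between -0.05 and 0.06.

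Other short transcripts were also higher in that library. The principal transcripts of the 74 genes had a median of 924 bases, against 3148 bases for the 7470 other genes with a length and a mean CPM at or above that of the lowest member (17.2 CPM), and 42 of the 74 were under 1000 bases. Among those other genes, the median log2 difference of PQY23_1 replicate 1 from the mean of replicates 2 and 3 was 0.24 for 371 genes under 1000 bases, 0.14 from 1000 to below 2000 bases, 0.07 from 2000 to below 3000, -0.04 from 3000 to below 5000 and -0.16 at 5000 bases or more. The 74 genes had 0.24 on the same measure. The 86 genes for cytosolic ribosomal proteins summed to 60450 CPM in replicate 1 and to 50170 and 51670 CPM in replicates 2 and 3. They were not taken out of the length groups above, so they are not a separate observation. The part of transcript length, RNA quality or library preparation in the lean of the 74 genes was not tested.

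**Figure D4:**
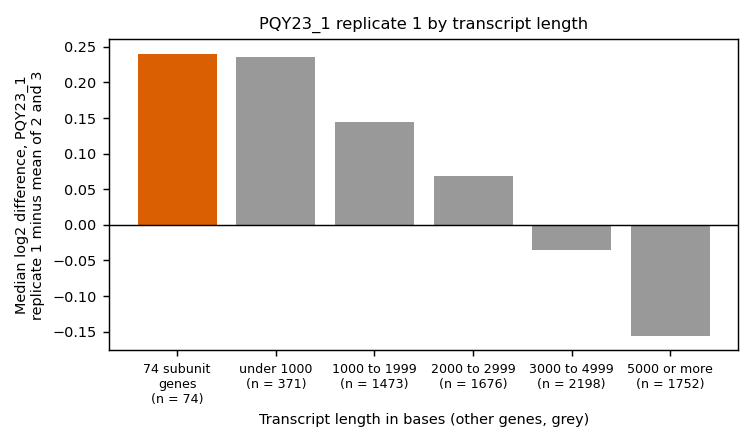
Median log2 difference of PQY23_1 replicate 1 from the mean of replicates 2 and 3 for the 74 genes (orange) and for other genes by length of the principal transcript (grey), with the number of genes under each bar. The grey bars fall from 0.24 for genes under 1000 bases to -0.16 at 5000 bases or more, and the orange bar stands at 0.24.

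Both compounds were given at 50 µM, so they were compared directly, as 1 pair. By edgeR 0 of 74 genes had an adjusted p below 0.05 between PQY23_1 and PQY09, where 2.22% of all genes were called. At an unadjusted p below 0.05 there were 8 higher under PQY23_1 and 0 lower, against 14.7% of all genes. DESeq2 called 1 gene, UQCRB, and limma on log2(FPKM + 1) called 0 (11 and 4 at an unadjusted p below 0.05). Over all genes DESeq2 called 1251 of 20157 and limma 598 of 11646. The median log2 difference was 0.13, with 63 of 74 above 0, and that of all genes was -0.01. Scaled as TPM it was -0.03, with all genes at -0.14, so that the members were 0.11 above. All libraries of PQY23_1 lay above those of PQY09 for 15 genes and below for 1, ATP5MC2, where 22% of all genes were separated. Among the 7761 genes at or above the lowest member's mean CPM 27.7% were separated, and edgeR called 3.56%. Without PQY23_1 replicate 1 the median was 0.04, with 46 of 74 above 0, 0 called by edgeR and 6 at an unadjusted p below 0.05. Over all genes in that fit 350 of 20884 were called, 48.1% lay above 0 and the median was -0.01.

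UQCRB again had the lowest adjusted p (0.103 by edgeR), with 153.8, 146.2 and 156.3 CPM under PQY09 and the PQY23_1 values given above (log2 0.30 ± 0.08). Its difference was 0.23 without PQY23_1 replicate 1 (adjusted p = 0.223). NDUFS1 was higher in all 3 PQY23_1 libraries, at 191.3, 191.6 and 202.8 CPM (0.15 ± 0.05, adjusted p = 0.193), and its difference was 0.16 without PQY23_1 replicate 1. NDUFV1 had the highest difference, 0.39 ± 0.17 (adjusted p = 0.348), and NDUFA5 the lowest, -0.29 ± 0.14 (adjusted p = 0.412), and without that library they stood at 0.30 and -0.39. ATP5MC2 had 101.8, 101.7 and 97.1 CPM under PQY09 and 91.5, 85.1 and 97.0 CPM under PQY23_1 (-0.14 ± 0.07, adjusted p = 0.457; -0.14 also without replicate 1). In complex III all 8 genes lay above 0, from 0.05 ± 0.08 (UQCRFS1) to UQCRB, with a median of 0.13. This was 6 of 8 with a median of 0.08 when PQY23_1 replicate 1 was left out, and UQCRFS1 then stood at -0.04. The intervals of the difference lay within 1.5-fold for 61 genes and within 2-fold for 72. They cover only the spread among these libraries and do not remove a difference between the compounds. The comparisons share libraries, so their values for a gene are not independent of each other.

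The 13 subunits encoded by mitochondrial DNA, the partners of these proteins in the same complexes, did not follow the same libraries. They summed to 117100, 107700 and 125000 CPM under DMSO, to 112800, 108000 and 129900 CPM under PQY09 and to 127000, 147500 and 147600 CPM under PQY23_1. Replicate 1, highest of its group for the nuclear genes, was the lowest of it here. Mitochondrial over nuclear summed CPM was 14.1, 12.7 and 14.4 under DMSO, 13.5, 13.3 and 15.4 under PQY09, and 12.8, 17.5 and 16.8 under PQY23_1. By edgeR 0 of 13 were called in any comparison, with 2, 6 and 7 at an unadjusted p below 0.05 for PQY09 and PQY23_1 against DMSO and for PQY23_1 against PQY09. In the same order, 15.6%, 16.3% and 14.7% of all genes tested had an unadjusted p below 0.05. DESeq2 called 1464, 1468 and 1251 of all 20157 genes. Of the 13 it called 1 (MT-ND6), 2 (MT-CO1 and MT-CO2) and 1 (MT-ND6), and limma on log2(FPKM + 1) called 0 in each. The median log2 change was 0.02 under PQY09 and 0.24 under PQY23_1, from -0.09 to 0.39, with 12 of 13 above 0. Without PQY23_1 replicate 1 it was 0.32 with 13 of 13 above 0, and MT-CO1, the catalytic subunit of complex IV, was called (log2 0.35, adjusted p = 0.0383 by edgeR). In that fit edgeR called 314 of 20884 genes, and 49.7% of all genes lay above 0.

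**Figure D5:**
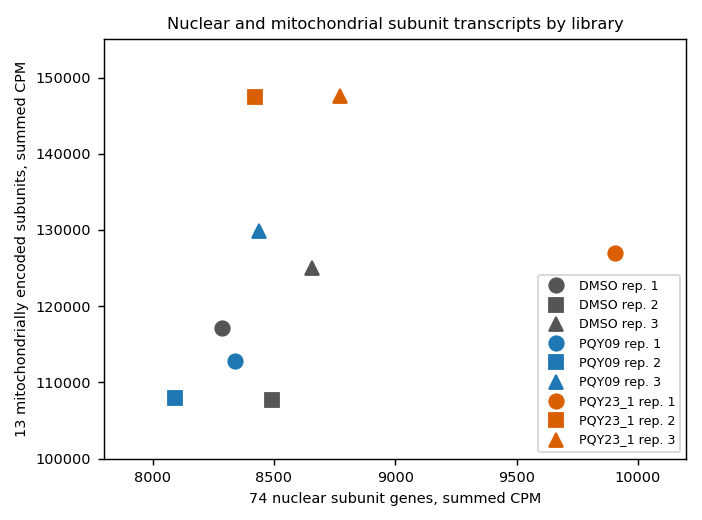
Summed CPM of the 74 nuclear genes (horizontal axis) against that of the 13 mitochondrially encoded subunits (vertical axis) in each of the 9 libraries, with colours for groups, shapes for replicates and axes that do not start at 0. PQY23_1 replicate 1 stands alone on the right at 9905 CPM, and PQY23_1 replicates 2 and 3 stand at the top at 147500 and 147600 CPM.

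Genes that build or regulate the complexes were counted from lists, in the order PQY09 and PQY23_1 against DMSO, then PQY23_1 against PQY09. Over all genes tested edgeR called 2.85%, 2.55% and 2.22%, and 15.6%, 16.3% and 14.7% had an unadjusted p below 0.05. Over all genes DESeq2 called 1464, 1468 and 1251 of 20157, and limma on log2(FPKM + 1) 719, 710 and 598 of 11646. Of 54 assembly factors edgeR called 0 in each comparison, with 4, 8 and 4 at an unadjusted p below 0.05, while DESeq2 called 2, 2 and 0 and limma 1, 1 and 0. Of 75 mitochondrial ribosomal proteins edgeR called 0, with 6, 10 and 6 at an unadjusted p below 0.05. DESeq2 called 2 of them under PQY09 (MRPL17 and MRPL47), 0 under PQY23_1 and 1 between the compounds (MRPL38), and limma called 0. Of 6 tested tissue or stress isoforms and regulators of the complexes edgeR called 0 (2, 0 and 2 at an unadjusted p below 0.05), and DESeq2 called NDUFA4L2 under PQY09. NDUFA4L2 was lower there and low in all libraries, at 0.52, 0.14 and 0.79 CPM against 1.7, 1.3 and 2.3 CPM under DMSO. Of 5 subunits that the symbol rule misses, edgeR, DESeq2 and limma called 0, and edgeR gave 0 at an unadjusted p below 0.05. Of 14 genes for electron carriers and coenzyme Q synthesis edgeR called 0, with 1, 2 and 2 at an unadjusted p below 0.05, DESeq2 called 1, 1 and 0 and limma 0. Of 15 regulators tested, 3, 4 and 2 had an unadjusted p below 0.05. DESeq2 called GABPB1, a subunit of the ETS factor GABP, under PQY09, where it had 22.7, 25.3 and 23.0 CPM against 32.0, 26.5 and 30.5 CPM under DMSO (log2 -0.33 ± 0.09, adjusted p = 0.104 by edgeR). DESeq2 called PPARGC1A in both PQY23_1 comparisons, and limma called it against DMSO. Among the 15, edgeR called 1, PPARGC1A, the coactivator known for driving mitochondrial biogenesis. PPARGC1A fell under PQY23_1, from 20.5, 21.2 and 20.0 CPM under DMSO to 13.2, 16.1 and 14.3 CPM (log2 -0.50 ± 0.09, adjusted p = 0.0309), and it stood at 19.7, 18.4 and 17.2 CPM under PQY09 (-0.16 ± 0.09, adjusted p = 0.488). The PQY23_1 libraries lay below all others. The call was made in 11 of 20 alternatives; with each of the 9 libraries left out in turn it was made 2 times, with adjusted p from 0.0358 to 0.126, and it was lost without PQY23_1 replicate 1 (-0.44, adjusted p = 0.0818).

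Of 13 citric acid cycle genes, IDH3G, a regulatory subunit of the NAD-dependent isocitrate dehydrogenase, rose under PQY23_1, from 34.9, 30.1 and 31.2 CPM to 46.1, 40.0 and 43.9 CPM (log2 0.43 ± 0.09, adjusted p = 0.0471). All 13 of these genes lay above 0 in that comparison, with a median of 0.17, where 51.1% of all genes tested did. It was 11 of 13, with a median of 0.14, without PQY23_1 replicate 1, where 49.7% of all genes lay above 0. The IDH3G call was made in 5 of 20 alternatives and was lost whichever of the 9 libraries was left out, with adjusted p from 0.0575 to 0.173 (0.39, adjusted p = 0.131, without PQY23_1 replicate 1). The 10 hepatocyte markers moved both ways. Under PQY09 edgeR called 2 of them, TF (transferrin) and ALB (albumin), both higher (log2 0.44 ± 0.05 and 0.21 ± 0.04, adjusted p = 0.00197 and 0.0403), and the list ran from -0.38 to 0.44 with a median of 0.14. Under PQY23_1 it called 1, TF, lower (-0.41 ± 0.05, adjusted p = 0.00468), and the list ran from -0.41 to 0.33 with a median of -0.07. Between the compounds it called 3, ALB, APOA1 and TF, all lower under PQY23_1 (-0.23, -0.51 and -0.85), with a list range of -0.85 to 0.24. With PQY23_1 replicate 1 left out it called APOA1 and TF against DMSO and the same 3 between the compounds. Over all genes it then called 314 and 350 of 20884. The ALB call under PQY09 was lost without any single DMSO or PQY09 library or without PQY23_1 replicate 3 (adjusted p from 0.0777 to 0.145). Between the compounds ALB was called in no other leave-out (adjusted p from 0.0567 to 0.132). APOA1 was not called there without PQY09 replicate 1 or 3 or PQY23_1 replicate 3 (adjusted p from 0.0566 to 0.0696). With all 9 libraries edgeR called 2.85% of all genes under PQY09, 2.55% under PQY23_1 and 2.22% between the compounds.

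Counting could mix reads of neighbours for some of the 74 genes. By start and end of the genes, without regard to exons, a gene expressed above 0 overlaps 45 of them. For 17 the neighbour reaches at least 10% of their CPM. NDUFA2 overlaps IK (109.2 CPM beside 30.99), NDUFC1 overlaps NAA15 (67.9 beside 28.4), NDUFS3 overlaps CELF1 and PTPMT1 (68.9 and 67.4 beside 44.7) and ATP5PD overlaps KCTD2 (44.3 beside 125.4). Values of these genes are therefore uncertain. UQCRB overlaps a gene at 0.010 CPM only.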

How the data were processed

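RNA of 9 HepG2 libraries was sequenced. Per the submitters' processing notes, the tools include StringTie 1.3.4d, HISAT2 2.0.4, cutadapt 1.9, DESeq2 and edgeR, and the build is hg38. Tool roles, annotation and strand setting: not given in the sources. The authors deposited estimated counts (expected counts, whole numbers) and FPKM for 60612 genes. The counts were rounded and filtered with filterByExpr (minimum count 10, total 15), scaled by TMM and tested by edgeR 4.0.16 (quasi-likelihood, 3 groups in one fit, 6 residual degrees of freedom), with Benjamini-Hochberg adjustment over 20157 genes. CPM use the TMM-scaled totals. SE is the log2 change over the square root of F. Alternatives used DESeq2 1.42.0, limma 3.58.1, other scalings and left-out libraries. The members and gene lists were chosen with earlier results of these data known. Genes were named if extreme in a complex, among the 5 highest or lowest by FPKM, or in a panel of core subunits. The test was checked on simulated data. Of the 74 genes, 1 is counted in all totals but not reported by name here.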

Additional observations from a re-analysis of the deposited data

How the results depend on the processing

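Calls among the 74 genes were 0 under every alternative except DESeq2, which called 1 (UQCRB) against DMSO and 1 against PQY09, and an adjusted p below 0.1, which gave 1 under PQY23_1 against DMSO; leaving out each of 9 libraries gave 0 to 0 in all 3 comparisons. Leaving out a library moved the members' median from -0.0365 to 0.0209 under PQY09, from 0.0247 to 0.154 under PQY23_1 and from 0.0391 to 0.173 between the compounds; the low ends of the last pair of ranges come from PQY23_1 replicate 1. TPM gave medians of -0.0247 and -0.0336 for the PQY23_1 comparisons, with the median of all genes at -0.112 and -0.144. Genes called over the whole table were 1464, 1468 and 1251 by DESeq2 in place of 574, 514 and 448. With only the 6 libraries compared they were 224 (PQY23_1 against DMSO) and 295 (between the compounds), and 943 between the compounds by TPM (149 higher, 794 lower). Left-out libraries gave 235 to 628, 138 to 371 and 222 to 397. With the replicate number as a block they were 342, 237 and 267; same-numbered libraries did not deviate together (r from -0.036 to 0.026), so the numbers are not taken as a pairing. The causes were not tested. Of 2751 values of named genes under alternatives, 2579 were counted as the same, 103 moved, 61 lost a call, 8 gained one and 0 reversed a called direction. The same means called in both fits in the same direction, or in neither with a difference from the main change below its SE. Direction was not checked for genes called in neither fit, and some crossed 0. Moved values were called in neither fit and differed by the SE or more. Levels per kilobase of principal transcript were chosen after seeing the data. By TPM 155 genes were called higher and 591 lower under PQY23_1 against DMSO; between the compounds the split was 195 and 297 by library totals and 243 and 355 by FPKM. Low counts pile up at 4, so the number of fragments behind a count is uncertain; counts divided by 4 changed no call among the 74 genes.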
